A study of Homo sapiens with 6 samples.

Results

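The genes described are 8 annexins, ANXA1, ANXA2, ANXA3, ANXA4, ANXA5, ANXA6, ANXA7 and ANXA11, and 2 S100 genes, S100A10 and S100A11, whose products pair with annexins. They are 10 of the 63140 genes in the deposited table, found by gene symbol, and all 10 were among the 16754 genes with enough counts to be tested. The genes were chosen by a list drawn up when the values of GSK-A1 against DMSO were already known. Their differences in that comparison are therefore given as a description, and nothing is inferred from how many of them were called. The libraries came from HEK293, an established human cell line of embryonic kidney origin. All cultures were grown in DMEM with serum, and confluent cells received 100 nM GSK-A1 for 24 h or the solvent dimethyl sulfoxide (DMSO). GSK-A1 inhibits phosphatidylinositol 4-kinase alpha, which forms phosphatidylinositol 4-phosphate at the cell surface membrane. Each group had 3 libraries. The labels number them as biological replicates without saying how the cultures were separated. The p-values therefore weigh each group difference only against the variation between these libraries, estimated with information from all tested genes.

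Annexins are cytosolic proteins that bind membranes carrying anionic lipids, such as phosphatidylserine and phosphoinositides, when calcium rises. Each has a conserved core that holds the calcium sites and a variable amino-terminal tail that takes partner proteins. S100A10, also called p11, binds the tail of annexin A2 to form a heterotetramer at the inner face of the plasma membrane, and S100A11 binds annexin A1. Annexins take part in membrane repair, in endocytosis and exocytosis, and in linking membranes to actin.

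Among the 10 genes, ANXA1 differed most between the groups, at 16.5 ± 0.73 CPM with DMSO and 39.0 ± 3.0 CPM with GSK-A1 (mean ± SD, n = 3 per group; CPM is the read count scaled to a fixed library size, after TMM scaling of the library totals). ANXA2 followed at 93.6 ± 0.49 and 120.5 ± 2.9 CPM. ANXA4 and ANXA6 stood lower with GSK-A1, and ANXA7 and ANXA11 were nearly level. The promoters of the 5 called genes are shown first: ANXA1, ANXA2 and ANXA5, which were higher with GSK-A1, and ANXA4 and ANXA6, which were lower. Each line gives 250 bases before the RefSeq transcription start and 50 after it, from build GRCh38.p14, 5′ to 3′ on the strand of the gene, in lower case. Capitals mark a TATA box (TATAAA) in ANXA1 and ANXA2, an AP-1 motif (TGANTCA) in ANXA2 and an ETS motif (CCGGAAG) in ANXA4. The windows lie at chr9:73151615-73151914 on the plus strand for ANXA1, chr15:60397937-60398236 on the minus strand for ANXA2, chr4:121696931-121697230 on the minus strand for ANXA5, chr2:69643558-69643857 on the plus strand for ANXA4 and chr5:151157730-151158029 on the minus strand for ANXA6.
ANXA1: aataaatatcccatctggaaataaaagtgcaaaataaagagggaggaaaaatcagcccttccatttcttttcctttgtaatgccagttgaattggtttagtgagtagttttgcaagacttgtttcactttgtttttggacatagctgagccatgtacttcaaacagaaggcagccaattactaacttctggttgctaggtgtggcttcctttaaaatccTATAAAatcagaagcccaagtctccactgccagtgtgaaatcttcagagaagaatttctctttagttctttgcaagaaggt
ANXA2: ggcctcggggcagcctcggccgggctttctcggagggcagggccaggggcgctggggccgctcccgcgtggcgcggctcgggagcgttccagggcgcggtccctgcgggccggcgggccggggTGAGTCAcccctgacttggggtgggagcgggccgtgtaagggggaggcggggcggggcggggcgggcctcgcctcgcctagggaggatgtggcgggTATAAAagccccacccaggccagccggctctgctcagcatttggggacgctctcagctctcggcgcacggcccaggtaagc
ANXA5: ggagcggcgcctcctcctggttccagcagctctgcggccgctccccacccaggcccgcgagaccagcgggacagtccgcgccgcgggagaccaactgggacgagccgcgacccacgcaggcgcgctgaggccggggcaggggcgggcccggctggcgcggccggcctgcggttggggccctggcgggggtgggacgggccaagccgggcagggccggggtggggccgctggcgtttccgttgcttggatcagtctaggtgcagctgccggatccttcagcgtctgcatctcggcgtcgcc
ANXA4: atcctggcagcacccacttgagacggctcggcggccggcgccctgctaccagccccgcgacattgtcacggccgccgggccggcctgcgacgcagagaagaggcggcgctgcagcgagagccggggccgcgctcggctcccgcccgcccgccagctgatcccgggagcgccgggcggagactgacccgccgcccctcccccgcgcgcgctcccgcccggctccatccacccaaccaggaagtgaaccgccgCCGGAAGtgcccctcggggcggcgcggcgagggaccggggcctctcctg
ANXA6: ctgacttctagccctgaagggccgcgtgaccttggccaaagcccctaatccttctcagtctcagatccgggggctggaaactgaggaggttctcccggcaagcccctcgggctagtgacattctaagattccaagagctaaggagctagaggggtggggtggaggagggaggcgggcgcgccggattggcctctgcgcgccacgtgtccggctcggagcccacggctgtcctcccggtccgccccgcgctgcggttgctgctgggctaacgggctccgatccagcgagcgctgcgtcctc

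The promoters of ANXA1 and ANXA2 each held TATAAA beginning 31 bases before the start, on the strand of the gene. Among all 35116 promoter windows, 11.5% held TATAAA anywhere on either strand. It lay 26 to 36 bases before the start on the gene strand in 767 windows (2.2%), an interval set after the matches had been seen. None of the other 8 genes held it there, ANXA5 included, which was also called higher. ANXA11 held it 61 bases before the start in 1 of its windows. The ANXA1 and ANXA2 windows were otherwise unlike. ANXA1 had 37.7% GC and 0 CG dinucleotides, against a median of 58.7% GC and 14 CG over all windows. ANXA2 had 76.0% GC and 32 CG, 3 GC boxes (GGGCGG) and the AP-1 motif 127 bases before the start, a motif that 7.7% of all windows held. The ANXA5 window had 76.3% GC and 36 CG and, of the motifs searched, held only a GC box.

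The 10 genes had 14 windows in the RefSeq table, since ANXA4, ANXA6 and ANXA11 have more than 1 start. The ANXA4 window shown had 78.0% GC and 44 CG, with the ETS motif beginning at the second transcribed base. ETS motifs were in 10.3% of all windows, and ANXA11 also held one. The ANXA6 window shown had 66.3% GC and 25 CG and held a single GC box. GC boxes were in windows of 8 of the 10 genes and in 45.0% of all windows. A CArG box lay near the far end of the ANXA7 window, at position -229 from the start, and 1.3% of windows held one. No window of the 10 genes held a CRE (TGACGTCA), an EGR motif (GCGNGGGCG, which can overlap a GC box) or a TEAD motif (CATTCC), which 1.8%, 9.4% and 14% of all windows held. All motifs were searched on both strands. A match says only that these letters are in the window.

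Library totals ranged from 33040178 to 47777233 counts, and all 6 libraries carried the same lane label. GSK-A1 replicate 2 stood apart from the rest: its chi-square per gene against the other GSK-A1 libraries was 10.98 and 15.52, while other pairs within a group gave 1.84 to 3.14. HEK293 markers VIM, NEFL, KRT8, KRT18, EYA1 and PAX2 were present, while NEFM and INA were near 0. VIM, EYA1 and KRT8 were called higher with GSK-A1 and PAX2 lower, and NEFL and KRT18 were not called. Of 8 fibroblast markers, COL1A2 was at 0 in every library, and DCN, LUM, PDGFRB and FAP were at most 0.355 CPM. The summed level was 76.8 to 82.2 CPM with DMSO and 64.3 to 66.5 CPM with GSK-A1, most of it FBLN1. FBLN1 and COL3A1 were called lower with GSK-A1 (log2 fold change -0.24 ± 0.04 and -0.81 ± 0.08, SE), and COL1A1 was not called. The 6 blood and 6 endothelial markers summed to at most 1.40 and 0.46 CPM in any library. The part of these markers in the results was not tested. In RNA from whole cultures, fewer cells of a kind and less RNA per cell cannot be told apart.

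In the fit over all 16754 tested genes, 5 of the 10 genes were called at an adjusted p under 0.05 (edgeR quasi-likelihood test, Benjamini-Hochberg adjustment over all tested genes), against 22.9% of all genes tested. ANXA1, ANXA2 and ANXA5 were called higher with GSK-A1, a direction in which 12.0% of tested genes were called. ANXA4 and ANXA6 were called lower, a direction in which 10.9% were called. The groups did not overlap in CPM for these 5 genes and S100A11, 6 of the 10, and for 40.5% of all tested genes. The median log2 fold change was 0.10 over the 10 genes and -0.01 over all tested genes. Genes called in the whole table differed by a median of 0.24 in absolute log2 fold change. Of the 5 called here, ANXA1, ANXA2 and ANXA4 lay above that size, ANXA6 just below it and ANXA5 well below. ANXA3, which was not called, also lay above it at 0.34.

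**Figure D1:**
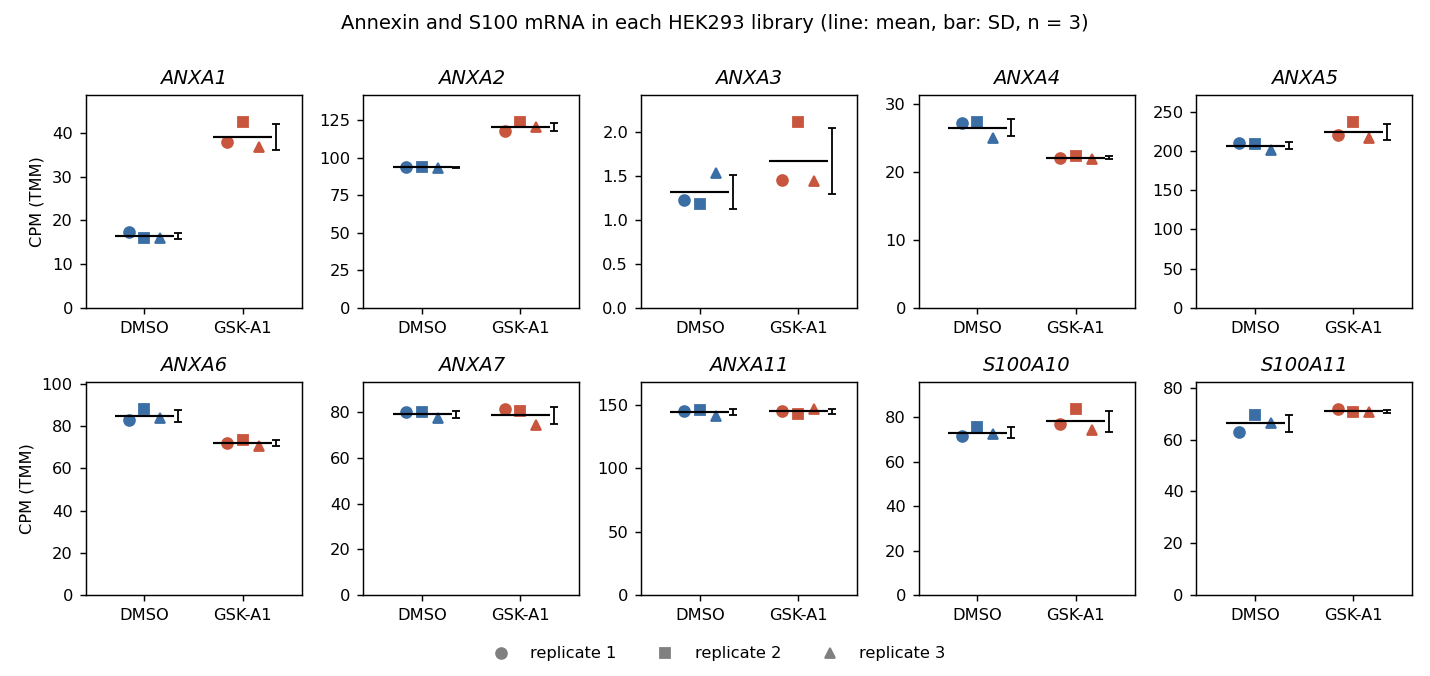
Normalised expression (CPM, linear axes from 0) of the 10 genes in each library, with the group mean as a line and the SD as a bar (n = 3 per group); marker shapes give the replicate number. The GSK-A1 points of ANXA1 lie at 36.7 to 42.4 CPM, well above the DMSO points at 16.1 to 17.4, while those of ANXA7 and ANXA11 overlap.

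ANXA1 encodes annexin A1, the phospholipid-binding protein known for limiting inflammation and as a substrate of receptor tyrosine kinases. In DMSO replicates 1 to 3 its level was 17.4, 16.1 and 16.1 CPM, and in the GSK-A1 replicates, in the same order, 37.9, 42.4 and 36.7 CPM. Every GSK-A1 library was above every DMSO library, with replicate 2 the highest. The log2 fold change came to 1.24 ± 0.06 (SE), or 2.36-fold, the 43rd from the top of all tested genes. Without GSK-A1 replicate 2 the log2 fold change was 1.18. The gene lies at chr9:73151757-73170393 on the plus strand (GENCODE 29, GRCh38), and no other annotated exon overlaps its exons.

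ANXA2 encodes annexin A2, which binds phosphatidylinositol 4,5-bisphosphate, actin and S100A10. It stood at 93.8, 93.9 and 93.0 CPM with DMSO and at 117.7, 123.5 and 120.2 CPM with GSK-A1. The DMSO libraries lay within 1 CPM of each other, and all GSK-A1 libraries were above them. The log2 fold change was 0.36 ± 0.04 (SE), a rise of 28.7%. Sequence of 50 bases taken from its longest transcript also occurs in other genes at 12.99% of positions, chiefly in the processed pseudogene ANXA2P2 (ENSG00000231991), so reads of the copy and of ANXA2 could be exchanged. That copy was counted at 3, 7 and 4 reads with DMSO and 13, 12 and 11 with GSK-A1, against 3082 to 5486 reads of ANXA2 in any library. The gene lies at chr15:60347134-60402883 on the minus strand.

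ANXA5 encodes annexin A5, the phosphatidylserine binder used to stain apoptotic cells. Its level was 209.4, 209.1 and 201.7 CPM with DMSO and 220.0, 236.2 and 216.5 CPM with GSK-A1. The groups did not overlap, yet their difference was small, at a log2 fold change of 0.12 ± 0.04 (SE). The call was near the threshold (edgeR adjusted p = 0.0413). It was lost with upper-quartile factors (log2 fold change 0.08, adjusted p = 0.150), without any 1 of the 3 DMSO libraries (adjusted p 0.0966 to 0.186) and without GSK-A1 replicate 1 (adjusted p = 0.0672). ANXA5 lies at chr4:121667955-121697113 on the minus strand.

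ANXA4 encodes annexin A4, which is found under the plasma membrane of epithelial cells. It was counted at 27.2, 27.3 and 25.1 CPM with DMSO and at 22.1, 22.3 and 21.9 CPM with GSK-A1. The lowest DMSO library was above the highest GSK-A1 library, and the log2 fold change was -0.27 ± 0.05 (SE). ANXA6 encodes annexin A6, the family member with a doubled core, which acts at the plasma membrane and on late endosomes. It stood at 82.7, 87.9 and 83.9 CPM with DMSO and at 72.2, 73.3 and 70.6 CPM with GSK-A1, again without overlap. Its log2 fold change was -0.24 ± 0.04 (SE), and it fell by 15.1%, close to the 16.8% by which ANXA4 decreased. With the GC trend removed the log2 fold changes lay further apart, at -0.17 for ANXA6 and -0.30 for ANXA4. ANXA4 lies at chr2:69644425-69827100 on the plus strand and ANXA6 at chr5:151100712-151157882 on the minus strand.

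ANXA7 and ANXA11 encode the annexins with long amino-terminal tails, and annexin A11 is known to tether RNA granules to lysosomes. ANXA7 stood at 80.1, 80.0 and 77.5 CPM with DMSO and at 81.3, 80.4 and 74.5 CPM with GSK-A1. ANXA11 stood at 145.0, 146.3 and 141.7 CPM with DMSO and at 145.3, 142.9 and 146.5 CPM with GSK-A1. The groups overlapped for both genes. The log2 fold changes were -0.01 ± 0.04 (SE) for ANXA7 and 0.01 ± 0.04 (SE) for ANXA11, with signs that turned under other settings (0.0003 for ANXA7 without a count filter, -0.04 for ANXA11 with upper-quartile factors). Both lie on the minus strand of chromosome 10, ANXA7 at chr10:73375101-73414076 and ANXA11 at chr10:80150889-80205572. An exonic 3.67% of ANXA7 overlaps the antisense gene AL512656.1, and the strand setting of the counting was not given in the sources used here.

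ANXA3 was nearly silent. Annexin A3 is an annexin of neutrophils and several epithelia, and its mRNA was counted at 1.23, 1.19 and 1.54 CPM with DMSO and at 1.46, 2.11 and 1.44 CPM with GSK-A1. These values rest on 51 to 72 reads per library, and the groups overlapped. The log2 fold change of 0.34 ± 0.18 (SE) was close to that of ANXA2 in size, with an error several times larger, and was not called. Without GSK-A1 replicate 2, the highest library, it was 0.17. ANXA3 lies at chr4:78551519-78610451 on the plus strand.

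S100A10 encodes p11, the partner that joins a pair of annexin A2 molecules, and S100A11 encodes the calcium-binding partner of annexin A1. S100A10 stood at 71.3, 75.7 and 72.2 CPM with DMSO and at 77.0, 83.5 and 74.2 CPM with GSK-A1, and the groups overlapped. S100A11 stood at 62.8, 69.6 and 66.4 CPM with DMSO and at 71.7, 70.8 and 70.6 CPM with GSK-A1. Its groups did not overlap, but the highest DMSO library lay close below the lowest GSK-A1 library. The log2 fold changes were 0.10 ± 0.05 (SE) for S100A10 and 0.10 ± 0.04 (SE) for S100A11, and neither was called (edgeR adjusted p = 0.150 and 0.113). S100A11 was called without GSK-A1 replicate 2 (0.11, adjusted p = 0.0228) and with the GC trend removed (0.16, adjusted p = 0.00610), but was at 0.06 without DMSO replicate 1 (adjusted p = 0.419) and with upper-quartile factors (adjusted p = 0.352). S100A10 was at 0.05 without GSK-A1 replicate 2, at 0.06 with upper-quartile factors (adjusted p = 0.395) and at 0.17 with the GC trend removed (adjusted p = 0.0806), and was called only with the GC trend removed together with a replicate block (0.17, adjusted p = 0.00251). The genes are neighbours on the minus strand of chromosome 1, at chr1:151982915-151994390 for S100A10 and chr1:152032506-152047907 for S100A11.

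**Figure D2:**
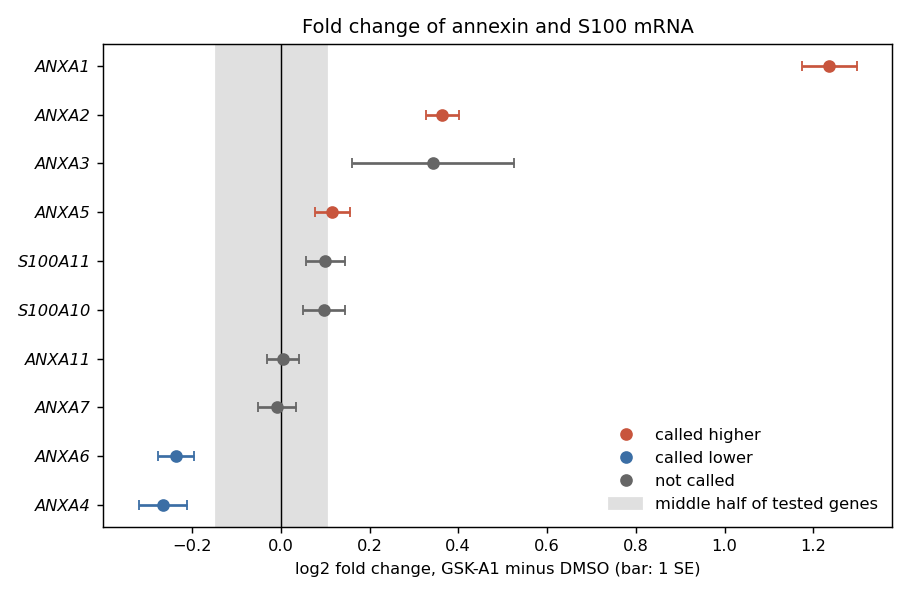
Log2 fold change of each gene, GSK-A1 minus DMSO, with 1 standard error as a bar; red is called higher, blue called lower and grey not called, and the shaded band spans the lower to the upper quartile of all tested genes (-0.15 to 0.10). ANXA1 lies far to the right at 1.24, ANXA2 and ANXA3 lie near 0.36 and 0.34, ANXA4 and ANXA6 lie to the left of the band, and S100A10, S100A11, ANXA7 and ANXA11 lie inside it.

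Levels of different genes were compared per kilobase of the longest annotated transcript. With DMSO the highest were ANXA5 at 117 ± 2.5 and S100A11 at 112 ± 5.7 CPM per kilobase (SD, n = 3), whose libraries overlapped. S100A10 came next at 60.8 ± 1.9, then ANXA6 at 32.7 ± 1.1 and ANXA7 at 32.3 ± 0.60, which overlapped each other. ANXA2 stood at 26.5 ± 0.14, ANXA11 at 20.7 ± 0.34, ANXA1 at 7.48 ± 0.33, ANXA4 at 6.0 ± 0.29 and ANXA3 at 0.45 ± 0.07. Apart from those 2 pairs, neighbours in the order did not overlap between DMSO libraries. With GSK-A1, ANXA2 was at 34.2 ± 0.83, above ANXA7 (32.1 ± 1.5) and ANXA6 (27.8 ± 0.52).

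The place of ANXA2 depended on the length used. Its longest annotated transcript has 3528 bases and its longest principal transcript, the main isoform as annotated by APPRIS, 1676. With the latter length, a choice made after seeing the data, ANXA2 stood at 55.8 ± 0.29 CPM per kilobase with DMSO, the fourth place after S100A10, and at 71.9 ± 1.7 with GSK-A1, the third place above S100A10 at 65.1 ± 4.0. ANXA4 then stood at 9.47 ± 0.45 with DMSO, above ANXA1. With the union of all exons as the length, S100A11 was first at 97.5 ± 5.0 and ANXA5 second at 68.1 ± 1.4, and ANXA2 was seventh at 10.6 ± 0.06.

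**Figure D3:**
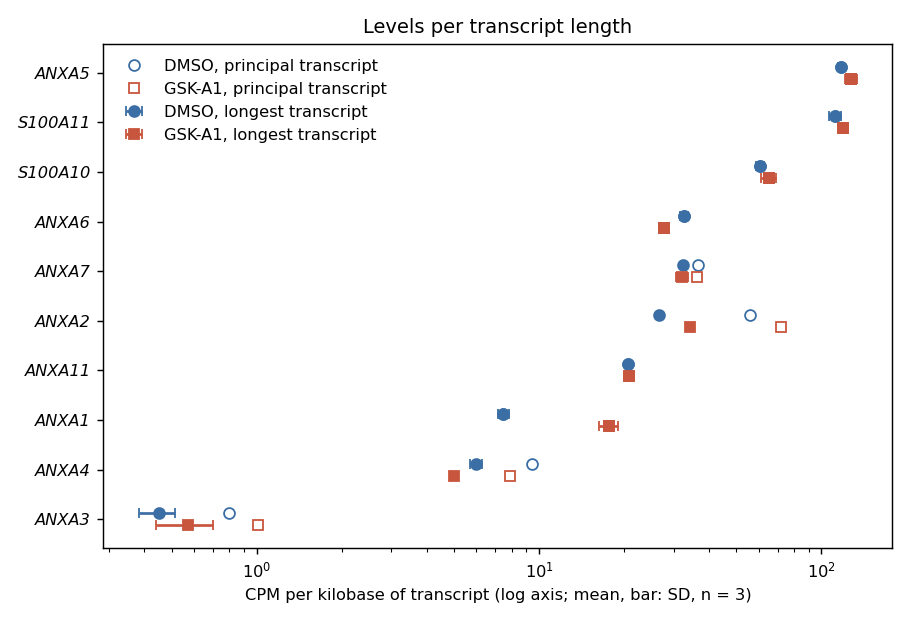
Level of each gene in CPM per kilobase of transcript on a log axis, as group mean with the SD as a bar (n = 3); filled markers use the longest transcript and open markers the longest APPRIS principal transcript. The levels run from 0.45 for ANXA3 to 117 for ANXA5 with DMSO, ANXA1 shows the widest gap between the groups, and the open markers of ANXA2 lie well to the right of its filled ones.

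Together the 8 annexins summed to 243.5 ± 4.3 CPM per kilobase in the DMSO libraries and 265.2 ± 9.2 in the GSK-A1 libraries (SD, n = 3; longest transcripts), without overlap between the groups. ANXA1 made up 3.07% ± 0.13 of this sum with DMSO and 6.65% ± 0.27 with GSK-A1. ANXA2 made up 10.9% ± 0.12 and 12.9% ± 0.29. ANXA5 kept the largest share, at 48.2% ± 0.26 and 47.9% ± 0.59, and its groups overlapped. ANXA6 made up 13.4% ± 0.38 and 10.5% ± 0.17, and ANXA4 2.46% ± 0.07 and 1.89% ± 0.05. With principal transcripts the ANXA1 share was 2.66% and 5.68%, and the ANXA2 share 19.9% and 23.2%. These shares restate the differences above on another scale.

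The 2 partner pairs differed in balance. S100A10 stood to ANXA2 at a ratio per kilobase of 2.23, 2.37 and 2.28 with DMSO and of 1.92, 1.98 and 1.81 with GSK-A1. With the principal transcript of ANXA2 the ratios were 1.06, 1.12 and 1.08 with DMSO and 0.912, 0.942 and 0.861 with GSK-A1, so whether S100A10 mRNA exceeded ANXA2 mRNA with GSK-A1 depended on the length. Every GSK-A1 library was below every DMSO library. The choice of length multiplies all these ratios by the same factor, so it could not change that order. S100A11 stood to ANXA1 at 15 ± 1.3 with DMSO and 6.80 ± 0.51 with GSK-A1. ANXA2 stood to ANXA1 at 3.55 ± 0.15 with DMSO and 1.94 ± 0.12 with GSK-A1. Like the shares, the ratios restate the differences above on another scale.

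Within the groups, the genes were compared by their deviation from the group mean in log2 CPM, which the choice of genes did not use. Of 45 pairs, 33 had a positive Pearson correlation over the 6 libraries, with a median of 0.36. All points come from the same 6 libraries, with the library that stood apart: 7 of the 10 genes had their highest GSK-A1 value in replicate 2. The same counts were not made over all tested genes, so they are not read as particular to these genes. ANXA5 and ANXA1 had the highest correlation at 0.89, followed by S100A10 and ANXA5 at 0.85 and S100A11 and ANXA6 at 0.83. S100A10 and ANXA2 were at 0.68, while S100A11 and ANXA1 were at -0.46. ANXA11 went most against the others, at -0.91 with ANXA3 and -0.44 with ANXA1, but was at 0.66 with ANXA4. Deviations were smallest for ANXA11, at most 0.03 in size, so its correlations rest on very small differences. They were at most 0.04 for ANXA2 and largest for ANXA3, at 0.36 in GSK-A1 replicate 2.

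The genes whose log2 CPM over the 6 libraries was most like that of ANXA2 were STAMBPL1 (Pearson r = 0.9992), FBXO7 (0.9992) and TMOD1 (0.9979), among 9928 tested genes with a mean of at least 10 CPM. STAMBPL1 encodes a deubiquitinase, FBXO7 an F-box protein and TMOD1 a cap of actin filaments. TMOD1 stood at 22.2 CPM with DMSO and 32.7 CPM with GSK-A1. ANXA1 was the 18th most like ANXA2 (0.9961), and S100A10 the 3021st (0.7037). Most like S100A10 were RMI2 (0.9942), NT5C2 (0.9934) and CEP44 (0.9925), with ANXA5 at place 567 and ANXA2 at place 2779. These correlations are descriptions over 6 libraries that include the difference between the groups.

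The other annexin genes had almost no counts in these libraries. Of ANXA8, ANXA8L1, ANXA9, ANXA10 and ANXA13, only ANXA9 had enough counts to be tested, with 0.35 ± 0.05 CPM in DMSO and 0.33 ± 0.11 CPM in GSK-A1 libraries (edgeR adjusted p = 0.760). The others had at most 2 counts in any library. Exons of ANXA8L1 overlap other genes on the same strand over 12.4% of their length. Sequence shared with other genes was not searched for these annexins, so low counts need not mean absence. Of 18 other S100 genes in the table, 4 were tested and 0 were called by edgeR, with 1 at an unadjusted p under 0.05. That gene was S100A4, which encodes a metastasis-associated partner of non-muscle myosin, with 1.67 ± 0.04 CPM in DMSO and 1.26 ± 0.13 CPM in GSK-A1 libraries (log2 fold change -0.42 ± 0.15, adjusted p = 0.0583). S100A13 was at 16 ± 0.24 and 15.1 ± 0.80 CPM, and S100A1 and S100A2 were under 1 CPM. S100A6, S100A8, S100A9, S100A12, S100G and the remaining untested ones, S100A3, S100A5, S100A7, S100A7A, S100A14, S100A16, S100B, S100P and S100Z, had at most 20 counts in any library. Without S100A10 and S100A11, the S100 genes summed to 16.9 to 20.2 CPM in a library.

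Of 23 genes whose products are known to bind or act with annexins or S100 proteins, 14 were tested, 1 was called higher and 2 lower (median log2 fold change -0.03). These 21.4% are close to the 22.9% called among all tested genes. The gene called higher was AHNAK, which encodes a giant scaffold protein that binds the complex of annexin A2 and S100A10. AHNAK stood at 60.8, 67.6 and 72.0 CPM with DMSO and at 82.0, 92.5 and 88.8 CPM with GSK-A1. All GSK-A1 libraries lay above all DMSO libraries, and the log2 fold change, 0.40 ± 0.06 (SE), was close to that of ANXA2 (edgeR adjusted p = 0.000492). CAV1, which encodes caveolin-1, was lower (log2 fold change -0.22 ± 0.06, edgeR adjusted p = 0.0235), and so was ASIC1, an acid-sensing ion channel (-0.15 ± 0.05, adjusted p = 0.0428), although the CPM of ASIC1 overlapped between the groups. The calls of CAV1 and ASIC1 were lost without any 1 of the DMSO libraries (adjusted p 0.0695 to 0.0935 and 0.0519 to 0.185) and without GSK-A1 replicate 1 (0.136 and 0.0967). The CAV1 call was also lost without GSK-A1 replicate 3 (adjusted p = 0.0739). The ASIC1 call was also lost with DESeq2 (adjusted p = 0.0545) and with the GC trend removed (log2 fold change -0.07, adjusted p = 0.186), and without GSK-A1 replicate 2 its log2 fold change was -0.09 (adjusted p = 0.0424). The formyl peptide receptors FPR1, FPR2 and FPR3, which annexin A1 acts on, plasminogen (PLG) and dysferlin (DYSF) were at or near 0.

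Of 26 genes of plasma membrane repair, 25 were tested, 6 were called higher and 5 lower, with a median of 0.01. That is 44.0% of the tested genes of the list, against 22.9% of all genes tested (12.0% higher, 10.9% lower), and no test of the list was made. This list, like the others, was drawn up with earlier results of these data known. The tested genes had a median of 18.4 CPM, and the shares were not compared at matched levels. CHMP4C, an ESCRT-III subunit, had a mean of 50.2 ± 1.6 CPM in DMSO and 59.4 ± 2.1 CPM in GSK-A1 libraries (log2 fold change 0.24 ± 0.04; edgeR adjusted p = 0.00120). CHMP6, a further ESCRT-III subunit, stood at 21.3 ± 0.79 and 16.9 ± 0.84 CPM (-0.33 ± 0.06; adjusted p = 0.000926). CHMP3 was at 36.9 ± 0.59 and 31.9 ± 0.52 CPM (-0.21 ± 0.05; edgeR adjusted p = 0.00371). Exons of CHMP6 and CHMP4C overlap antisense genes over 21.5% and 13.4% of their length, and those of CHMP3 overlap a read-through gene over 10.8%. The gene antisense to CHMP4C is ZFAND1, which was also called higher (log2 fold change 0.36 ± 0.04; edgeR adjusted p = 2.44e-05). As the strand setting was not given, reads of ZFAND1 could have been counted for CHMP4C. CAVIN1, which encodes a caveola coat protein, was at 16.3 ± 0.20 and 13.1 ± 0.73 CPM (-0.32 ± 0.06; edgeR adjusted p = 0.00193).

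Of 24 other genes whose products bind anionic lipids, 21 were tested, 1 was called higher and 2 lower, with a median of 0.0015. This makes 14.3% of the list, against 22.9% of all tested genes, with no test of the list made. MARCKSL1, whose product binds phosphatidylinositol 4,5-bisphosphate through a basic stretch, had means of 380.9 ± 5.7 CPM in DMSO and 327.1 ± 5.5 CPM in GSK-A1 libraries (log2 fold change -0.22 ± 0.03; edgeR adjusted p = 0.000227). With the GC trend removed, MARCKSL1 was at -0.13 (adjusted p = 0.0204). MFGE8, a secreted phosphatidylserine binder like annexin A5 in its ligand, was at 120.7 ± 2.2 and 137.7 ± 8.9 CPM (0.19 ± 0.04; edgeR adjusted p = 0.00621). DOC2A, a calcium-dependent phospholipid binder of exocytosis, was at 2.73 ± 0.15 and 2.00 ± 0.14 CPM (-0.43 ± 0.13; edgeR adjusted p = 0.0207), a call lost with DESeq2 (adjusted p = 0.0820), without DMSO replicate 1 or 3 (0.0566 and 0.0796) and with the GC trend removed together with a replicate block (0.0509). None of the called genes of these lists reached the size of the ANXA1 difference, which was already known when ANXA1 was listed.

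**Figure D4:**
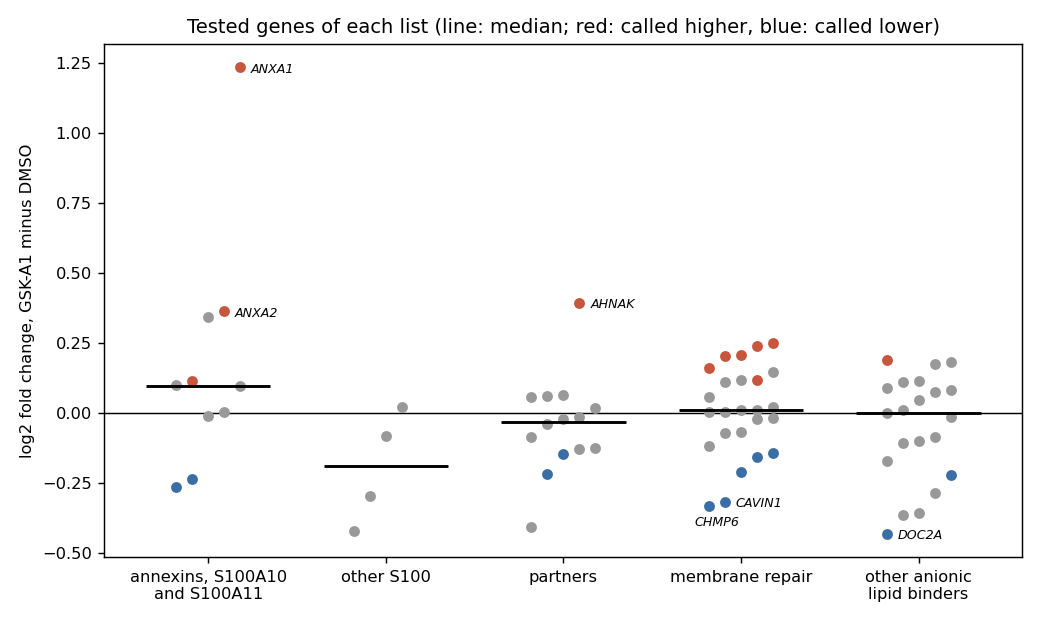
Log2 fold change (GSK-A1 minus DMSO) of each tested gene in 5 gene groups, with the group median as a line; red is called higher, blue called lower and grey not called, and called genes beyond 0.3 in size are named. ANXA1 stands alone at 1.24, ANXA2 and AHNAK lie near 0.4, and the medians of the other groups lie between -0.19 and 0.01.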

How the data were processed

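Counts per gene were analysed for 6 HEK293 libraries, 3 with DMSO and 3 with GSK-A1. The authors deposited raw counts per gene as integers, not normalised. Per the submitters' processing notes, cutadapt 5.1, STAR 2.7.11b, featureCounts of Subread 2.1.1 and DESeq2 1.38.0 were used with build GRCh38.p13; the annotation release, strand setting and filters were not given in the sources used here.

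Genes were kept by filterByExpr (smallest count 10, smallest total 15) and tested with edgeR 4.0.16 in R 4.3.3, by the quasi-likelihood F test with robust dispersions and TMM factors over all 16754 genes. A gene was called at a Benjamini-Hochberg adjusted p under 0.05. CPM relate counts to the tested genes' TMM-scaled total. The genes described and all gene lists were chosen with earlier results of these data known. Named genes are the 10 genes, other annexins and S100 genes, and up to 4 called genes of each further list by smallest p. Processed copies, some overlapping genes and the 3 genes most like ANXA2 and S100A10 are also named. Lengths, locations and shared 50-base stretches come from GENCODE 29, and promoters from RefSeq (GRCh38.p14). Alternatives used other factors, filters, tools (DESeq2 1.42.0, limma-voom from limma 3.58.1), a GC correction (loess span 0.3), a replicate block and each library left out. The code was tested on simulated counts for GSK-A1 against DMSO, in 4 draws with 200 of 16754 genes changed. In these, edgeR recovered 98.8% at a log2 fold change of 1 and 91% at 0.5. Unchanged genes made up 8.87% of calls, more than the adjusted p threshold of 0.05 aims at. Far fewer genes were changed than were called in the data. Genes of the lowest mean CPM were not drawn as changed, and smaller differences were not simulated.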

Additional observations from a re-analysis of the deposited data

How the results depend on the processing

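The calls of ANXA1, ANXA2, ANXA4, ANXA6 and AHNAK held under all 16 alternatives, with log2 fold changes of 1.18 to 1.28, 0.32 to 0.39, -0.31 to -0.25, -0.28 to -0.17 and 0.33 to 0.45. Over all tested genes, 3835 were called (2007 higher, 1828 lower), and 1871 (1058 higher, 813 lower) at an adjusted p under 0.01. Leaving out 1 library gave 2163 (without DMSO replicate 1) to 4890 (without GSK-A1 replicate 2), with 1137 to 2640 higher and 1004 to 2250 lower. Of the calls, 52.3% were higher, against 33.3% with upper-quartile factors and 64.4% with the GC trend removed. Of the 10 genes, 5 were called higher with the GC trend removed and a replicate block, a fit that called 4586 of 16094 genes (2936 higher). Other S100 genes called numbered 1 with upper-quartile factors, 1 with at least 50 counts in 3 libraries, and 0 to 1 with a library left out. Partner genes called numbered 1 at an adjusted p under 0.01 and 1 (without DMSO replicate 1, for example) to 5 (without GSK-A1 replicate 2) with a library left out. Membrane repair genes called numbered 7 at an adjusted p under 0.01 and 6 to 12 with a library left out. Other lipid binders called numbered 5 with the GC trend removed and 2 to 5 (without GSK-A1 replicate 3) with a library left out. The log2 fold change of ANXA7 was 0.0003 with no count filter and -0.0247 to 0.0326 with a library left out. That of ANXA11 was -0.0352 with upper-quartile factors, -0.0022 with at least 50 counts in 3 libraries, and -0.0064 to 0.0189 with a library left out. The causes were not tested.

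The replicate numbers were not taken to pair the samples, since the labels state no pairing. Same-numbered deviations correlated at 0.04, 0.145 and 0.137. GSK-A1 replicate 1 was closer to DMSO replicate 3 (0.071), but the other differently numbered pairs were negative (-0.135 to -0.012). Pairing by number is thus not settled. With the replicate number as a block, 4127 genes were called, against 3835 without it, and the same 5 of the 10 genes. Counts limit ANXA3 (51 to 72 reads a library) and the other annexins and S100 genes under 1 CPM.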
